A study of Mus musculus with 3 samples.

Results

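The genes described are Fxyd2, Fxyd5, Atp1b1 and Atp1b3, which encode accessory subunits of the sodium/potassium ATPase, the sodium pump. They are 4 of the 24067 genes in the deposited table, found by gene symbol, and all 4 have a row. They were selected on their FPKM in these same libraries, because Fxyd2 was high with Ift88 shRNA and in neither control, so their values are given as a description, with no test. A mean of at least 1 FPKM over the libraries was reached by 3 of the 4, Atp1b1 being the exception, and by 10358 genes of the whole table.

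RNA was measured in primary mouse pre-osteoclasts, mononuclear precursors of the bone-resorbing osteoclast, after 2 days with MCSF and RANKL. The design asked what Ift88, an intraflagellar transport gene needed for the primary cilium, contributes to the response to shear. The 3 groups, with 1 library each, were cells carrying Ift88 shRNA and given orbital shear stress for 24 hours, sheared cells carrying control shRNA, and cells carrying control shRNA that received no shear and are called static here. The genotype was labelled Ift88 knockdown in the first group and WT in both others, and all cells carried an shRNA and had MCSF and RANKL. Ift88 shRNA without shear was not analysed here, and knockdown effects that need shear cannot be told apart from those that do not. Culture, library preparation and group likewise cannot be told apart, and no difference below has a replicate check.

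The sodium pump moves sodium out of the cell and potassium in, at the cost of ATP, and so maintains the ion gradients that other transporters and channels use. Its catalytic subunit works with a glycosylated beta subunit (Atp1b genes), which it needs for folding, delivery to the plasma membrane and potassium handling. Small single-span proteins of the FXYD family bind the complex and adjust its affinity for ions or its rate. Fxyd2 encodes the gamma subunit, best known in the kidney tubule, and Fxyd5 encodes dysadherin, which is also known for an influence on cell adhesion.

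The family takes its name from a signature of a proline followed by the residues F, X, Y and D. The coding stretch around it is shown for both FXYD members and for Fxyd6, the gene next to Fxyd2, since all FXYD proteins carry this signature. Capitals mark the codons of this signature, read in frame on the coding strand. The letters are from GENCODE M21 transcripts on GRCm38, given 5′ to 3′ on the coding strand.
Fxyd2: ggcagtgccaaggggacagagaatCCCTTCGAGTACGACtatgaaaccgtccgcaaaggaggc
Fxyd5: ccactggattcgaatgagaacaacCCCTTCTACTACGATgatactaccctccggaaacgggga
Fxyd6: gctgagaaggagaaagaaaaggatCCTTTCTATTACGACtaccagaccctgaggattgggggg
The Fxyd2 stretch spans an intron on the plus strand of chromosome 9, from 45408108 to 45408325, and its capitals are bases 46 to 60 of a coding sequence of 192 bases. The Fxyd5 stretch lies on the minus strand of chromosome 7, from 31035258 to 31036442 including introns, with the capitals at bases 400 to 414 of 534 coding bases. The Fxyd6 stretch lies on the plus strand of chromosome 9, from 45390636 to 45390802 including an intron. Fxyd5 and Fxyd6 each share 12 of the 15 capital bases with Fxyd2. The signature was found in frame in 33 of 21614 genes with an annotated coding sequence, or 0.153%.

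The unit is FPKM as the authors deposited it, that is, fragments scaled to transcript length and library size, so that genes can be set side by side. Depth, estimated from the spacing of low values, was between 34850000 and 35230000 fragments per library. Intervals in brackets are 95% counting intervals from the estimated fragments (exact Poisson for a level, Clopper-Pearson for a ratio) and cover counting error only. Ift88 (gene ID 21821, chromosome 14, 57424064 to 57517936) was at 1.197 FPKM in the library labelled Ift88 shRNA, 2.71 in the sheared control and 2.98 in the static control. Its ratio of 0.442 (0.354 to 0.549) between the sheared libraries goes in the direction of the label.

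Fxyd2 was the accessory subunit gene that stood highest in the Ift88 shRNA library relative to the controls. It was at 37.8 FPKM in the sheared Ift88 shRNA library, 9.98 in the sheared control and 10.7 in the static control. The Ift88 shRNA library lay above both controls, whose own intervals overlapped (8.49 to 11.7 in sheared and 9.11 to 12.4 in static cells). In bulk RNA more cells of a type and more RNA per cell cannot be told apart. These levels rest on an estimated 600, 159 and 168 fragments in the same order, by the shortest transcript. How the table combines the transcripts of a gene is not stated, so the fragments and intervals of Fxyd2 and Fxyd5 are approximate; by the longest transcript Fxyd2 would have 750, 199 and 210. The ratio to the sheared control was 3.78 (3.17 to 4.54), and the ratio to the static control 3.55 (2.98 to 4.23). Sheared over static control cells gave 0.937 (0.749 to 1.17), an interval that includes no difference. In order of abundance Fxyd2 was gene 1970 of the table with Ift88 shRNA, against 5457 in the sheared and 5298 in the static control library.

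Fxyd2 (gene ID 11936) lies on chromosome 9 from 45399709 to 45410278 in GRCm38. Its row pools 3 RefSeq transcripts, with matched lengths of 632 to 745 bases, so the table does not show which transcript carried the difference. Its neighbours were at or near 0. Fxyd6, another modulator of the pump, ends 3550 bases before Fxyd2 and was at 0.0529 FPKM with Ift88 shRNA, listed at 0 in the sheared control and at 0.0178 in the static control. The noncoding gene 4833428L15Rik, 6348 bases beyond it, was listed at 0 in all 3 libraries.

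**Figure D1:**
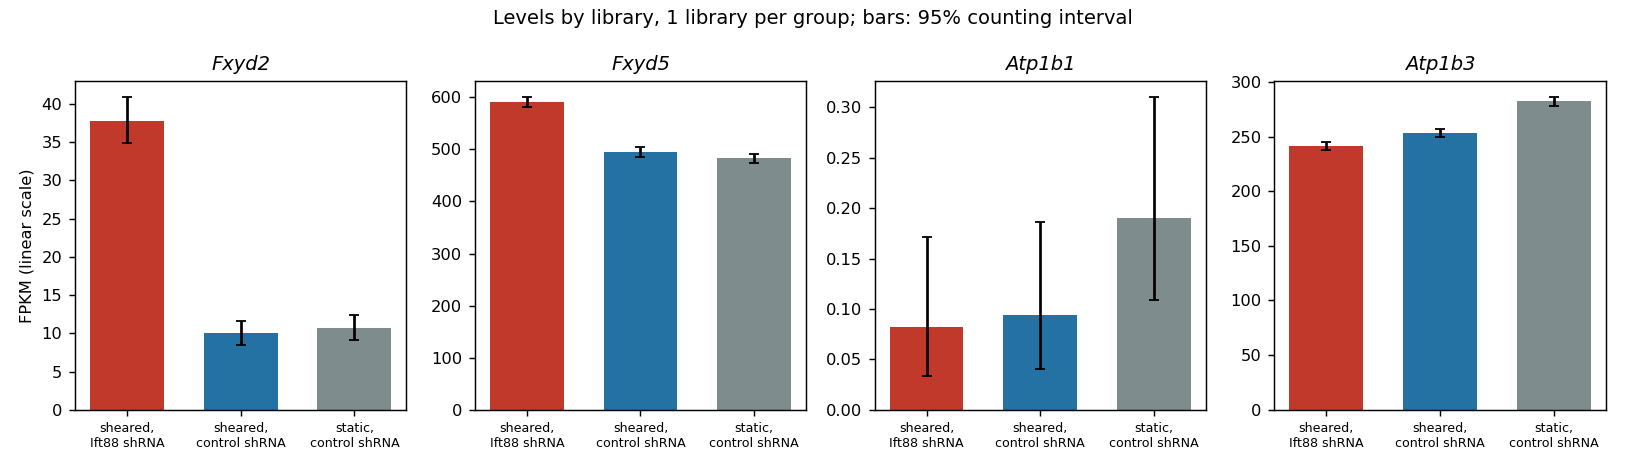
FPKM (linear axes from 0, a scale for each gene) of Fxyd2, Fxyd5, Atp1b1 and Atp1b3 in 1 library per group, with 95% counting intervals as error lines. Fxyd2 is at 37.8 FPKM in the sheared Ift88 shRNA library, above 9.98 and 10.7 in the control libraries; Atp1b3 is lowest with Ift88 shRNA, and the Atp1b1 intervals overlap throughout.

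Fxyd5 was the most abundant of the 4 genes in every library and was also highest with Ift88 shRNA, by a smaller factor. It was at 591 FPKM in the sheared Ift88 shRNA library, 495 in the sheared control and 482 in the static control. The Ift88 shRNA level (581 to 601) lay above both control intervals (486 to 505 in sheared and 473 to 492 in static cells), which overlapped. The ratio to the sheared control was 1.19 (1.16 to 1.22) and the ratio to the static control 1.22 (1.19 to 1.26). Sheared over static control cells gave 1.03 (0.999 to 1.05). Fxyd5 ranked 117th in abundance among all genes with Ift88 shRNA, against 146th in the sheared and 145th in the static control.

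Fxyd5 (gene ID 18301, chromosome 7, 31032723 to 31042331) shares a stretch of 43975 bases with Fxyd7, Fxyd1 and Fxyd3. Fxyd7, a brain-enriched modulator whose gene begins 184 bases beyond Fxyd5, was listed at 0 in both sheared libraries and at 0.0589 FPKM in the static control. Fxyd1, known as phospholemman in heart and muscle, was listed at 0 with Ift88 shRNA, at 0.0788 FPKM in the sheared control and at 0 in the static control. Fxyd3 was listed at 0 throughout. Fxyd5 was thus the gene of this cluster that passed the filter. The microRNA gene Mir7050 and the noncoding gene Gm38984 overlap Fxyd5. Mir7050 was listed at 0, Gm38984 was not analysed here, and the treatment of strand is not given in the sources used here, so reads from overlapping genes cannot be told apart.

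Atp1b3 went the other way and supplied nearly all beta subunit RNA. It was at 242 FPKM in the sheared Ift88 shRNA library, 253 in the sheared control and 282 in the static control. The 3 counting intervals did not overlap (238 to 245, 249 to 257, and 278 to 286 in the same order). The ratio of Ift88 shRNA to the sheared control was 0.954 (0.933 to 0.976), that of the sheared to the static control 0.897 (0.878 to 0.916), and that of Ift88 shRNA to the static control 0.856 (0.837 to 0.874). The difference between the sheared libraries was smaller than that of 54.2% of all genes that passed the filter, whatever their direction. The difference between the control libraries was smaller than that of 17.4% of them. Atp1b3 (gene ID 11933) lies on chromosome 9 from 96332655 to 96364431, and its nearest listed neighbours are the transcription factor gene Tfdp2, at 1.54, 1.47 and 1.38 FPKM in the same order, and Rnf7, a subunit gene of ubiquitin ligases, at 68.5, 67.9 and 63.2.

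Atp1b1, the beta subunit gene of most epithelia, was near the limit of detection. It was at 0.0826 FPKM in the sheared Ift88 shRNA library, 0.0941 in the sheared control and 0.190 in the static control, or an estimated 7, 8 and 16 fragments. All ratio intervals included no difference: 0.878 (0.271 to 2.77) for Ift88 shRNA over the sheared control, 0.495 (0.183 to 1.22) for the sheared over the static control, and 0.434 (0.151 to 1.12) for Ift88 shRNA over the static control. Differences of the observed size in Atp1b1 were therefore not resolved at this depth. Atp1b1 (gene ID 11931, chromosome 1, 164437099 to 164458355) overlaps the end of Nme7, a nucleoside diphosphate kinase family gene, by 202 bases. Nme7 was at 6.22 FPKM with Ift88 shRNA, 5.90 in the sheared control and 6.54 in the static control, many times the level of Atp1b1.

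**Figure D2:**
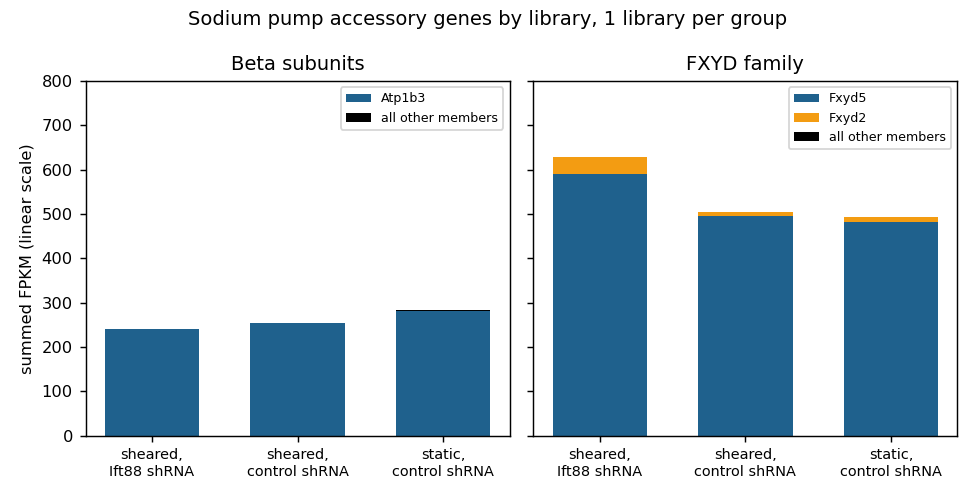
Summed FPKM (linear axis from 0, shared by the panels) of beta subunit and FXYD genes in 1 library per group, stacked by gene, with no error shown. The FXYD column is tallest with Ift88 shRNA (629 against 505 and 493 FPKM in the sheared and static controls), and the beta column is shortest there (242 against 253 and 283).

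Summed by class, beta subunit genes were at 242 FPKM with Ift88 shRNA, 253 in the sheared control and 283 in the static control. FXYD genes summed to 629, 505 and 493 FPKM in the same libraries. Atp1b3 made up at least 99.9% of the beta sum in each library, the other detected beta genes, Atp1b1 and Atp1b2, reaching at most 0.190 and 0.0927 FPKM.

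Within the FXYD sum, Fxyd2 contributed 6.01% with Ift88 shRNA, against 1.98% in the sheared control and 2.16% in the static control. Fxyd5 contributed 94.0%, 98.0% and 97.8% in the same libraries. Fxyd5 stood at 15.6 times the Fxyd2 level with Ift88 shRNA, against 49.6 times in the sheared and 45.3 times in the static control. Of the FXYD difference of 123 FPKM between the sheared libraries, 77.5% came from Fxyd5 and 22.5% from Fxyd2. Fxyd2 thus had the larger factor and Fxyd5 the larger number of FPKM.

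Against the whole table, members were read on the scale of log2 of (FPKM + 1), which understates the differences of low genes. Of the 3 members that passed the filter, Fxyd2 alone was at least 2-fold higher with Ift88 shRNA than in the sheared control (log2 1.82), where 0.0772% of all genes were. Fxyd2 chose the list, so nothing is read from that count. No member was at least 2-fold lower, where 0.0676% of all genes were. Fxyd5 was at 0.25 and Atp1b3 at -0.07 on this scale, beside a median of 0.01 over all 10358 genes. A higher ratio than that of Fxyd2 was held by 3 genes, each with a transcript under 500 bases, a class in which a few fragments give a large FPKM. Among the 10219 genes without such a transcript Fxyd2 came first on this scale, and it came after Gm4070 with a pseudocount of 0.1 FPKM or none.

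**Figure D3:**
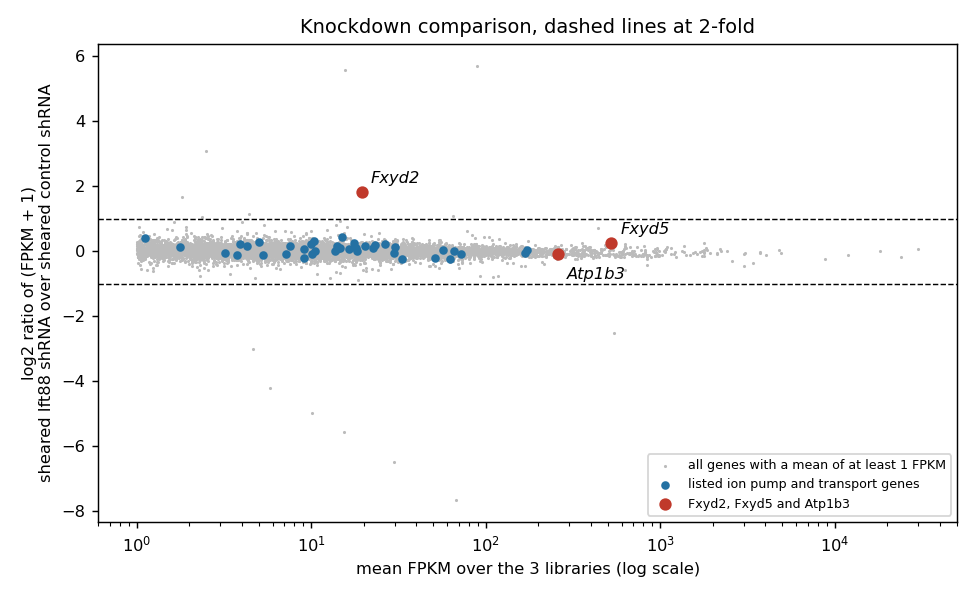
Each point is a gene with a mean of at least 1 FPKM; the horizontal axis is that mean (log scale) and the vertical axis the log2 ratio of (FPKM + 1), sheared Ift88 shRNA over sheared control shRNA, with dashed lines at 2-fold, the members in red and the listed ion pump and transport genes in blue. Fxyd2 stands at 1.82, while Fxyd5 and Atp1b3 lie at 0.25 and -0.07, within the dashed lines.

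Between the control libraries, which differ in shear, none of the 3 members that passed the filter reached 2-fold in either direction on this scale, where 0.116% of all genes were higher and 0.164% lower in the sheared library. The log2 ratios of (FPKM + 1) were -0.09 for Fxyd2, 0.04 for Fxyd5 and -0.16 for Atp1b3, beside a median of -0.01 over all genes. Between sheared Ift88 shRNA and static control cells, Fxyd2 was at 1.73, Fxyd5 at 0.29 and Atp1b3 at -0.22. In that comparison 0.0869% of all genes lay 2-fold or more above the static control and 0.126% below it by as much, and of the 3 members that passed the filter Fxyd2 was past 2-fold. The 3 comparisons share libraries pairwise, so their values are not independent of each other.

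The surrounding ion transport genes, 76 in 7 lists with the beta subunit and FXYD genes included, mostly differed little. Of these, 42 passed the filter, with a median log2 ratio of (FPKM + 1) of 0.08 between the sheared libraries. The median over all 10358 genes was 0.01, and 94.5% of them lay within 1.2-fold. Of the 42, Fxyd2, Nkain1, Slc9b2, Atp2a3, Slc4a7 and Slc1a5 lay outside 1.2-fold on this scale, all higher with Ift88 shRNA. The share of all genes past 1.5-fold was not computed. On this scale Fxyd2 was the only listed gene at least 1.5-fold higher or lower. Fxyd2 chose the members, so nothing is read from that count. By plain FPKM there were 2, Fxyd2 and Slc9b2, the ratio of Slc9b2 being 1.91 (1.47 to 2.49). Between the control libraries 1 of the 42, Slc9b2, was at least 1.5-fold lower and none higher on either scale. Without the share of all genes at 1.5-fold, nothing is read from that count either. The median log2 ratio of (FPKM + 1) of the 42 was -0.03 there. Over all genes it was -0.01, with 95.8% of genes within 1.2-fold.

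Genes listed for links to the pump or to sodium transport were lower with Ift88 shRNA in 5 of 6 that passed the filter (median -0.10). Over all genes 53.6% were higher. Of the 5, Sik1, Nedd4l and Oxsr1 had ratio intervals that included no difference. The ratio to the sheared control was 0.845 (0.799 to 0.892) for Sgk1 and 0.968 (0.938 to 0.999) for Wnk1. The Wnk1 interval ends close to 1 and leaves out the scaling between libraries, so its difference is not resolved. The FPKM totals were 0.989 (Ift88 shRNA) and 1.01 (sheared control) of the mean total over the libraries. Nkain1, whose product interacts with the beta subunit, was the 1 of the 6 that was higher. It was at 18.04 FPKM with Ift88 shRNA, 12.9 in the sheared control and 14.3 in the static control. Its ratio to the sheared control was 1.40 (1.24 to 1.58). The kinase gene Sgk1, which promotes pump and sodium channel activity in kidney, was at 29.5, 34.9 and 35.3 FPKM in the same order. The related potassium pumps Atp4a, Atp4b and Atp12a did not exceed 0.00868 FPKM.

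Transporters that use the sodium gradient were more often higher than lower with Ift88 shRNA, 12 of 17 with a median of 0.14, in a table where 53.6% of genes were higher. Of the 12, Slc8a1, Slc9a9 and Slc38a1 had ratio intervals that included no difference. Among the lower genes, those of Slc9a7, Slc9a8 and Slc12a2 did so too. The taurine transporter gene Slc6a6, the most abundant, was at 165 FPKM with Ift88 shRNA, 173 in the sheared control and 163 in the static control. The glutamine transporter gene Slc1a5 was at 20.1, 16.6 and 16.3 FPKM in the same order, and the bicarbonate cotransporter gene Slc4a7 at 5.58, 4.42 and 5.01. Slc9b2, a sodium/proton antiporter gene of osteoclasts, was at 1.05 FPKM with Ift88 shRNA, 0.5496 in the sheared control and 1.75 in the static control. Unlike Fxyd2, Slc9b2 was therefore highest in static cells.

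Other P-type pumps had 6 of 8 members higher with Ift88 shRNA (median 0.06), in a table where 53.6% of genes were higher. Of the 6, Atp2b1, Atp2c1 and Atp7a had ratio intervals that included no difference. The lysosomal pump gene Atp13a2, the most abundant, was at 183 FPKM with Ift88 shRNA, 177 in the sheared control and 158 in the static control. The calcium pump gene Atp2a3 was at 12.04 FPKM with Ift88 shRNA, 9.36 in the sheared control and 9.73 in the static control, and its paralog Atp2a2 at 56.1, 65.6 and 66.0. Both genes encode calcium pumps of the endoplasmic reticulum, and they differed in opposite directions. Potassium channels and potassium-chloride cotransporters had 6 of 8 members higher (median 0.10), beside the same 53.6% of all genes. Of these 6, Kcnab2 had an interval that included no difference. The calcium-activated channel gene Kcnn4 was at 69.4, 74.1 and 73.7 FPKM and the cotransporter gene Slc12a7 at 10.9, 9.21 and 9.86.

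**Figure D4:**
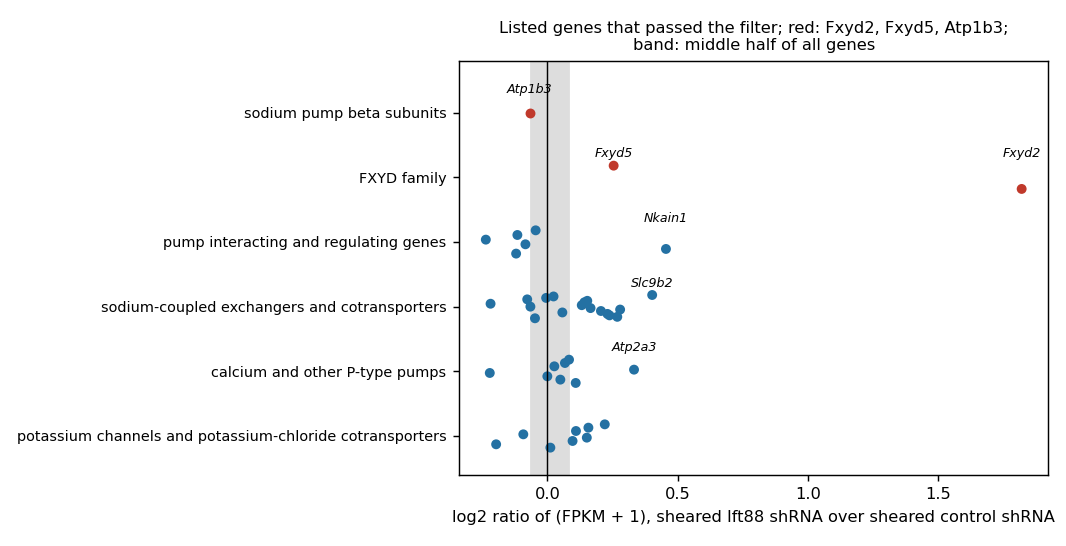
Log2 ratio of (FPKM + 1), sheared Ift88 shRNA over sheared control shRNA (horizontal axis), for the listed genes that passed the filter, 1 row per list and 1 point per gene; the grey band holds the middle 50% of all genes. Fxyd2, on which the members were selected, is at 1.82, and the next highest point is Nkain1 at 0.45.

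Over the 3 libraries, the genes closest to Fxyd2 in pattern were Olfm1, Tgfbi, Ndrg4, Sbsn and Alox5, by Euclidean distance between log2(FPKM + 1) values centred on each gene's mean, among 10211 candidates. The distances ran from 0.68 for Olfm1 to 0.84 for Alox5. Olfm1, a secreted olfactomedin gene, was at 6.37 FPKM with Ift88 shRNA, 2.94 in the sheared control and 2.64 in the static control. Tgfbi, a matrix protein gene induced by TGF-beta, was at 23.04, 13.3 and 11.7 FPKM in the same order. All 5 were highest with Ift88 shRNA, an outcome that their choice by likeness to Fxyd2 favours. Unlike Fxyd2, Tgfbi, Ndrg4 and Alox5 were higher in the sheared than in the static control, with ratio intervals above 1. Sbsn rests on an estimated 51 fragments with Ift88 shRNA, 18 in the sheared control and 26 in the static control. Their ratios to the sheared control ran from 1.73 for Tgfbi to 2.78 for Sbsn, all below the 3.78 of Fxyd2. With 3 libraries such a likeness holds few degrees of freedom and is a description.

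**Figure D5:**
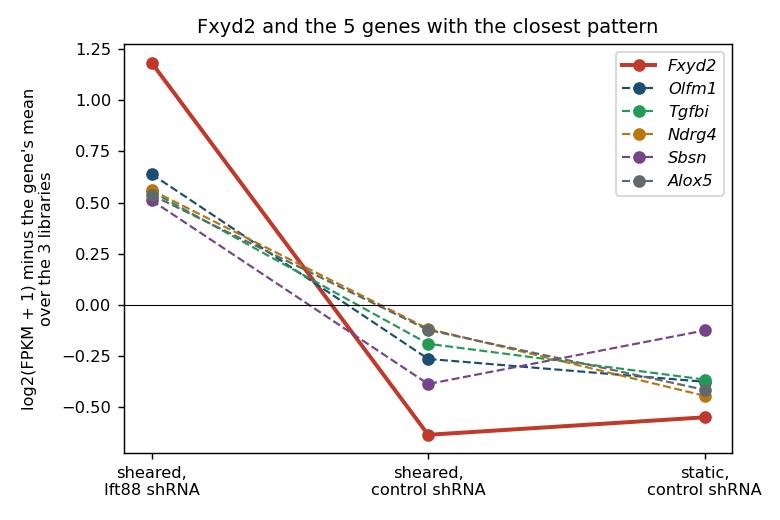
Log2(FPKM + 1) minus the gene's mean over the 3 libraries (vertical axis), in 1 library per group, for Fxyd2 (solid line) and the 5 genes with the closest pattern (dashed lines). All 6 are highest with Ift88 shRNA, which the choice by pattern favours, with Fxyd2 at 1.18 and the others between 0.51 and 0.64.

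The label of the cells was checked against markers. Of 12 osteoclast lineage markers, 9 passed the filter and Ocstamp, Calcr and Oscar were below 1 FPKM in each library. Of the 9, 6 were highest with Ift88 shRNA. The share of all genes highest in that library was not computed, so nothing is read from this count. Nfatc1, 1 of the 6, had a ratio to the static control of 1.04 (0.983 to 1.10), an interval that includes no difference. Mmp9, a matrix protease gene, was at 85.5 FPKM with Ift88 shRNA, 39.3 in the sheared control and 70.3 in the static control, and Dcstamp, a cell fusion gene, was at 7.27, 3.67 and 5.21 in the same order. The other 3 were highest in the static control, among them Acp5, which encodes TRAP, at 83.0, 52.9 and 97.7 FPKM. The 12 markers summed to 685, 589.7 and 694 FPKM, with Csf1r and Atp6v0d2 the largest terms. The 6 macrophage markers in the table were all expressed, with sums of 1950.2, 1964 and 1978 FPKM.

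Markers of other cells were low or, unlike Fxyd2, had their highest sum in the static control or nearly level sums. Summed neutrophil markers (7, of which 3 passed the filter) were at 25.1 FPKM with Ift88 shRNA, 20.8 in the sheared control and 53.0 in the static control. Stromal and osteoblast markers (7, of which 4 passed) summed to 9.63, 7.49 and 10.2 FPKM. Between the sheared libraries, 8 of 9 osteoclast, 3 of 3 neutrophil and 4 of 4 stromal markers that passed were higher with Ift88 shRNA. Of the macrophage markers 2 of 6 were higher, and 53.6% of all genes were. The ratio intervals of S100a9, Ngp and Runx2 included no difference, and S100a8, with a transcript of 486 bases, has no interval. Those of Col1a1, Col1a2 and Sparc lay above 1. Endothelial markers (4, of which 2 passed) summed to 28.5, 26.8 and 28.6 FPKM. The 2 that passed were Kdr and Vwf, and both were higher with Ift88 shRNA than in the sheared control. Pecam1 and Cdh5 were at 0.164 FPKM or less. Lymphoid markers summed to at most 0.0963 FPKM, with Cd3e and Ms4a1 listed at 0. The erythroid, mast cell and megakaryocyte list had Pf4 at 315, 309 and 307 FPKM and 5 of 7 members listed at 0. Markers of kidney tubule epithelium (6) summed to at most 0.0147 FPKM, with Umod, Cdh16, Slc12a1 (also in the sodium-coupled list) and Aqp2 listed at 0, while Fxyd2 was at 37.8 FPKM in the same library. The part of osteoclast, neutrophil and stromal RNA in the member differences was not tested.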

How the data were processed

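RNA from 3 libraries of mouse pre-osteoclasts, 1 per group, was analysed. Groups were taken from the sample titles. The authors deposited 1 table of FPKM per gene, with NCBI gene IDs and RefSeq transcripts, per the file headers. Per the submitters' processing notes, the tools were Cufflinks 2.2.1, TopHat2 2.0.13, Trimmomatic 0.32 and bcl2fastq 1.8.4, on build mm10. No setting or use of strand is given there. TruSeq mRNA libraries were made from TRIzol RNA, per the labels' protocols. FPKM is a share of a library, so abundant genes move all others.

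Ratios were computed as log2 of (FPKM + 1) for genes with a mean of at least 1 FPKM, and a gene was called at 2-fold. Plain ratios beside genes are of FPKM with nothing added. With 1 library per group there is no p-value. Depth was estimated as the number of fragments at which low values (up to 6 fragments, genes with 1 transcript of at least 1000 bases, lengths from GENCODE M21 less a fitted 180 bases) are whole. Within 0.1, 65.8% to 67.1% were whole, so no count test was run. For genes with several transcripts the shortest was used. The estimate, the intervals and the calls were tested on simulated Poisson counts for genes with 1 transcript of at least 1000 bases. Fxyd2 and Fxyd5, with several transcripts, lie outside that setting, so their intervals were not checked by it. RefSeq coordinates (GRCm38.p6) matched 23987 gene IDs. Python 3.11.15, numpy 2.4.6, pandas 2.3.3, scipy 1.17.1 and matplotlib 3.10.9 were used.

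The members and lists were chosen with earlier results of these data known. Genes named are the members, Ift88, listed genes (examples being the most abundant and the largest differences of a list), the nearest annotated neighbours and the 5 genes closest to Fxyd2 in pattern, these without a transcript under 500 bases. Of the listed symbols, Adgre1 has no row, and some listed genes are not reported here.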

Additional observations from a re-analysis of the deposited data

How the results depend on the processing

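Each group had 1 library, so leaving out a replicate was not run. No paired analysis was possible because the labels give no replicate numbers and each group has 1 library. The member ratios were recomputed with a pseudocount of 0.1 FPKM, with equal library totals, with median-of-ratios size factors and, chosen after seeing the data, with no pseudocount. Of 48 such values 47 moved by less than the counting interval and no value past 2-fold changed sign. The exception was Atp1b3 between the sheared libraries, at a log2 ratio of -0.067 as reported and -0.035 with equal totals. With Ift88 shRNA against the sheared control, Fxyd2 had place 1 among genes without short transcripts as reported and place 2 with a pseudocount of 0.1 or none. That ranking, the longest transcript lengths and the plain ratios of listed genes were likewise chosen after seeing the data. With equal totals, 13 of 17 sodium-coupled transporters and 7 of 8 P-type pumps were higher with Ift88 shRNA, against 12 and 6 as reported. The other pathway lists had the same counts in that comparison. Equal totals raise the ratios of genes in general there, and the share of all genes that were higher was not computed for that setting.

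Counts of genes past 2-fold depended on the setting in 14 of 36 cases. With Ift88 shRNA against the sheared control, 8 genes were higher and 7 lower as reported. The counts were 16 and 12 with a pseudocount of 0.1, and 5 and 1 without genes that have a transcript under 500 bases; 4 were higher with a mean of at least 5 FPKM. Between the control libraries, 12 were higher and 17 lower as reported, 7 and 9 with a mean of at least 5 FPKM, and 4 and 9 without short transcripts. For Ift88 shRNA against the static control, 9 were higher and 13 lower as reported, 3 and 8 with a mean of at least 5 FPKM, and 5 and 5 without short transcripts; 15 were higher with a pseudocount of 0.1. A higher filter or the length limit leaves fewer genes; the cause of the shift with the pseudocount was not tested. Values near 0, such as those of Atp1b1, are limited by depth.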
